A study of Mus musculus with 31 samples.

Results

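RGLS4326-treated and PBS-treated Pcy/CD1 kidneys were compared among 14 mice whose kidney Lcn2 mRNA lay in the same range, so that transcripts that differ with the anti-miR can be read at like levels of Lcn2. Other injury transcripts were not matched, and 21 of 24 had higher levels with RGLS4326. Lcn2 encodes lipocalin 2 (Ngal), a secreted iron-siderophore binding protein that damaged and cystic tubules make in large amounts. Mice were chosen by this measured level: its count was divided by all gene-assigned counts of a kidney and scaled to 1000000 of them (CPM), and mice from 250 to 750 CPM were kept. The range held 6 of 12 PBS mice (numbers 2, 6, 7, 8, 11 and 12) and 8 of 14 RGLS4326 mice (numbers 1, 2, 4, 5, 7, 11, 12 and 14), which is 14 of 26 Pcy/CD1 kidneys and of 31 kidneys in the series.

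Pcy/CD1 mice carry the Pcy allele on the outbred CD1 background and develop slowly progressive kidney cysts without any Cre or transgene. Both groups were dosed subcutaneously from 5 weeks of age for 25 weeks and were 30 weeks old at harvest. The RGLS4326 mice received 25 mg per kg monthly, whereas the PBS mice are labelled as dosed weekly although the protocol text gives a monthly schedule for both. The study describes the dosed Pcy/CD1 mice as male. In the 14 matched kidneys Xist was at most 0.301 and the Y-linked Ddx3y at least 23.15 scaled CPM, as defined below. The 5 untreated CD1 mice of the same age, male by the protocol, have no cystic disease and are given only as a reference level. Whole-kidney polyadenylated RNA was sequenced, so fewer cells of a type and less RNA per cell cannot be told apart.

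MicroRNAs of the miR-17 family bind 3′ untranslated regions (3′UTRs) of mRNAs through their seed, bases 2 to 8, and lower the stability and translation of those mRNAs. RGLS4326 is a short, chemically modified oligonucleotide that pairs with this seed, and an effective anti-miR is therefore read by higher levels of transcripts that carry seed matches. In cystic kidneys the miR-17 family is abundant, and Pkd1 and Pkd2, the genes of autosomal dominant polycystic kidney disease, carry seed matches of their own. The mature sequences below, from RefSeq on GRCm38 coordinates, are shown because all share the seed in capitals, the part RGLS4326 is directed against.
mmu-miR-17-5p: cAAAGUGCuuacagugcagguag
mmu-miR-20a-5p: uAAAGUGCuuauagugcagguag
mmu-miR-93-5p: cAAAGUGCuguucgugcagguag
mmu-miR-106b-5p: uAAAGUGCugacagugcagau
The genes of miR-17-5p (chr14:115043684-115043706) and miR-20a-5p (chr14:115044183-115044205) lie on the plus strand of one cluster, and those of miR-93-5p (chr5:138165574-138165596) and miR-106b-5p (chr5:138165787-138165807) lie on the minus strand of another. A transcript was counted as carrying an 8mer when its longest annotated 3′UTR held the reverse complement of the seed followed by an A, and as 7mer-m8 when it held the reverse complement without that A. Shown next are the 8mers of Pkd1 and Pkd2, of the 5 signature genes and of the 4 further leading genes described below, with the 8mer in capitals and 11 bases before and 10 bases after it. Each lies in the last exon of its gene, and coordinates give the 7 bases that pair with the seed.
Pkd1, chr17:24595732-24595738, plus strand: atggggcttctGCACTTTAaaaaggctgt
Pkd2, chr5:104503821-104503827, plus strand: tataattttctGCACTTTAatttatttta
Rhoc, chr3:104794332-104794338, plus strand: attacacaccaGCACTTTAtatatttttg
P2rx4, chr5:122728868-122728874, plus strand: gctctgtccaaGCACTTTAtaaggaagga
Plekha3 first site, chr2:76695690-76695696, plus strand: aggatttctctGCACTTTAtagaatattg
Plekha3 second site, chr2:76696679-76696685, plus strand: tagaatgatcaGCACTTTAacaaaaattg
Mink1, chr11:70614211-70614217, plus strand: attttctgaaaGCACTTTAatgattcccc
D030056L22Rik, chr19:18718123-18718129, plus strand: acactgatataGCACTTTAgccatttctg
Daglb, chr5:143503986-143503992, plus strand: acaacagatgaGCACTTTAtacttgcctg
Ginm1, chr10:7768157-7768163, minus strand: ttttataagaaGCACTTTAtgaaattcta
Derl2, chr11:71010190-71010196, minus strand: taactccagaaGCACTTTAcgggatggta
Sh3bp2, chr5:34563587-34563593, plus strand: ctgatttcattGCACTTTAtgttagaaaa

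Lcn2 ranged from 343 to 626 CPM in the 6 PBS mice, with a mean of 454.6 ± 103.7 (SD), and from 341 to 630 CPM in the 8 RGLS4326 mice, with a mean of 495.9 ± 114.3. Lcn2 chose these mice and is not tested. Just below the range lay PBS mouse 1 at 241 CPM, RGLS4326 mouse 3 at 207 CPM and PBS mouse 4 at 206 CPM, and the nearest mouse above it was PBS mouse 3 at 933 CPM. The untreated CD1 kidneys held 0.772 to 9.52 CPM, so all 14 matched kidneys were far above wild-type levels.

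**Figure D1:**
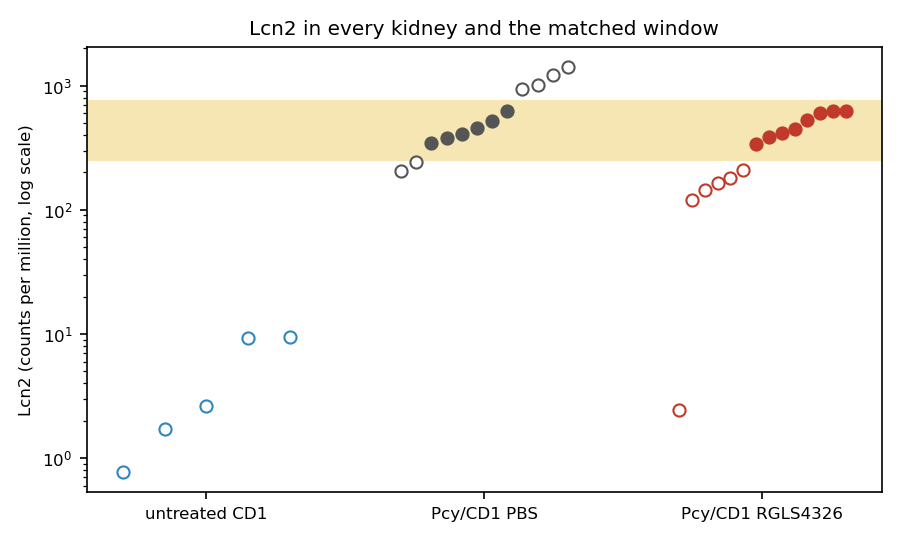
Lcn2 in every kidney (CPM, log scale), with 1 point per mouse and the range of 250 to 750 CPM shaded. Filled points are the 6 PBS and 8 RGLS4326 mice compared here. Open points lie outside the range, and the RGLS4326 mice outside it all lie below, down to 2.46 CPM in mouse 9, while the PBS mice outside it lie on both sides.

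Gene-assigned counts ranged from 18636481 to 25582754 per matched kidney and did not separate the groups (exact two-sided permutation p = 0.708). The share of reads that aligned to several places did: it was 19.1% ± 0.560 (SD, n = 6) with PBS and 20.5% ± 0.449 (n = 8) with RGLS4326 (exact permutation p = 0.000999, adjusted over 6 library measures 0.00599). The range with PBS was 18.39% to 19.75%, and the lowest RGLS4326 mouse was at 19.66%. What part this difference plays in the results was not tested beyond the fit with that share as a covariate given in the closing section, since share and treatment nearly coincide. Separate mice are labelled, and no pair of libraries agreed within sampling noise.

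At matched Lcn2 few transcripts passed the adjusted threshold. Of 14783 genes tested with edgeR's quasi-likelihood test, 3 passed a Benjamini-Hochberg adjusted p of 0.05 (0.0203%), and all 3 were lower with RGLS4326: Slc4a5, Elovl6 and Gprc5b. Slc4a5 and Gprc5b also differed by more than 0.5 on the log2 scale (2 genes, 0.0135%). No gene passed in the higher direction (0%), where 440 genes had an unadjusted p under 0.05 (2.98%) against 508 lower genes (3.44%). DESeq2's Wald test on the same mice passed 74 genes, 32 of them higher. The ranges of the groups did not overlap for 50 genes (0.338%), of which 19 had every RGLS4326 mouse above every PBS mouse (0.129%) and 31 had every RGLS4326 mouse below (0.21%). The median absolute log2 fold change over all genes was 0.061 here, and 0.119 when all 26 Pcy/CD1 mice were compared, where 1480 of 14687 genes passed (10.1%). Those fits share mice, so their values are given side by side only.

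Slc4a5 encodes an electrogenic sodium bicarbonate cotransporter. Its scaled CPM, here and below CPM after TMM scaling of the libraries, was 11.8, 12.03, 11.5, 11.2, 9.65 and 9.90 in PBS mice 2, 6, 7, 8, 11 and 12, and 7.85, 8.004, 6.59, 6.62, 6.36, 8.17, 5.37 and 7.18 in RGLS4326 mice 1, 2, 4, 5, 7, 11, 12 and 14. Every treated kidney lay below every PBS kidney, and the 5 CD1 kidneys were lower again at 3.52 ± 1.61 (SD). The log2 fold change was −0.65 ± 0.10 (SE; edgeR adjusted p = 0.0377).

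Elovl6 encodes the elongase that lengthens palmitate to stearate. PBS kidneys held 34.03, 31.96, 28.99, 33.5, 32.1 and 33.9 scaled CPM of it and RGLS4326 kidneys 27.1, 25.9, 26.4, 26.04, 26.8, 24.4, 26.2 and 21.6, with no overlap. The log2 fold change was −0.35 ± 0.05 (SE; edgeR adjusted p = 0.0377), although the Elovl6 3′UTR carries an 8mer. Gprc5b, which encodes an orphan G protein-coupled receptor, ran from 24.9 to 36.1 scaled CPM with PBS (median 31.3) and from 19.2 to 24.5 with RGLS4326 (median 21.0), so that the highest treated kidney fell just short of the lowest PBS kidney. Its log2 fold change was −0.54 ± 0.08 (SE; edgeR adjusted p = 0.0377).

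The direction of these 3 genes was the same under every alternative run, but the call was not. Slc4a5 kept an adjusted p under 0.05 in 12 of 26 alternatives, Elovl6 in 13 and Gprc5b in 11, not counting those that held the same 14 mice and repeated the fit. When each of the 14 mice was left out in turn, the call held in 4, 5 and 3 fits. The library numbers in the deposited file names restart within each group and so divide its mice into 3 numbered series. These held 1, 3 and 2 matched PBS mice and 3, 2 and 3 matched RGLS4326 mice. Series were paired across the groups by order alone, and the labels do not say that same-numbered series were handled together. With this series as a covariate all 3 genes stood at an adjusted p of 0.0519. Within the series, the difference in mean log2 level of Slc4a5 was −0.60, −0.75 and −0.46, that of Elovl6 −0.35, −0.24 and −0.44 and that of Gprc5b −0.49, −0.54 and −0.59. With Lcn2 as a covariate over all 26 Pcy/CD1 mice, Slc4a5 differed by −0.56 (adjusted p = 0.0159), Elovl6 by −0.26 (0.0242) and Gprc5b by −0.42 (0.0240).

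The other lower genes with the smallest p did not pass. Cdkl1, a cyclin-dependent kinase-like gene whose product acts at cilia, stood at 151.3 to 180.5 scaled CPM with PBS and 102.2 to 146.9 with RGLS4326 (log2 fold change −0.40 ± 0.07, edgeR adjusted p = 0.0773). Camk1g, a calcium/calmodulin-dependent kinase gene, stood at 2.47 to 3.37 against 1.20 to 2.12 scaled CPM (−0.71 ± 0.13, 0.0836). Ranbp3l and 5930403L14Rik also had no overlap between groups, with log2 fold changes of −0.46 and −0.24. Ranbp3l was not lower when all 26 Pcy/CD1 mice were compared without regard to Lcn2 (0.08).

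**Figure D2:**
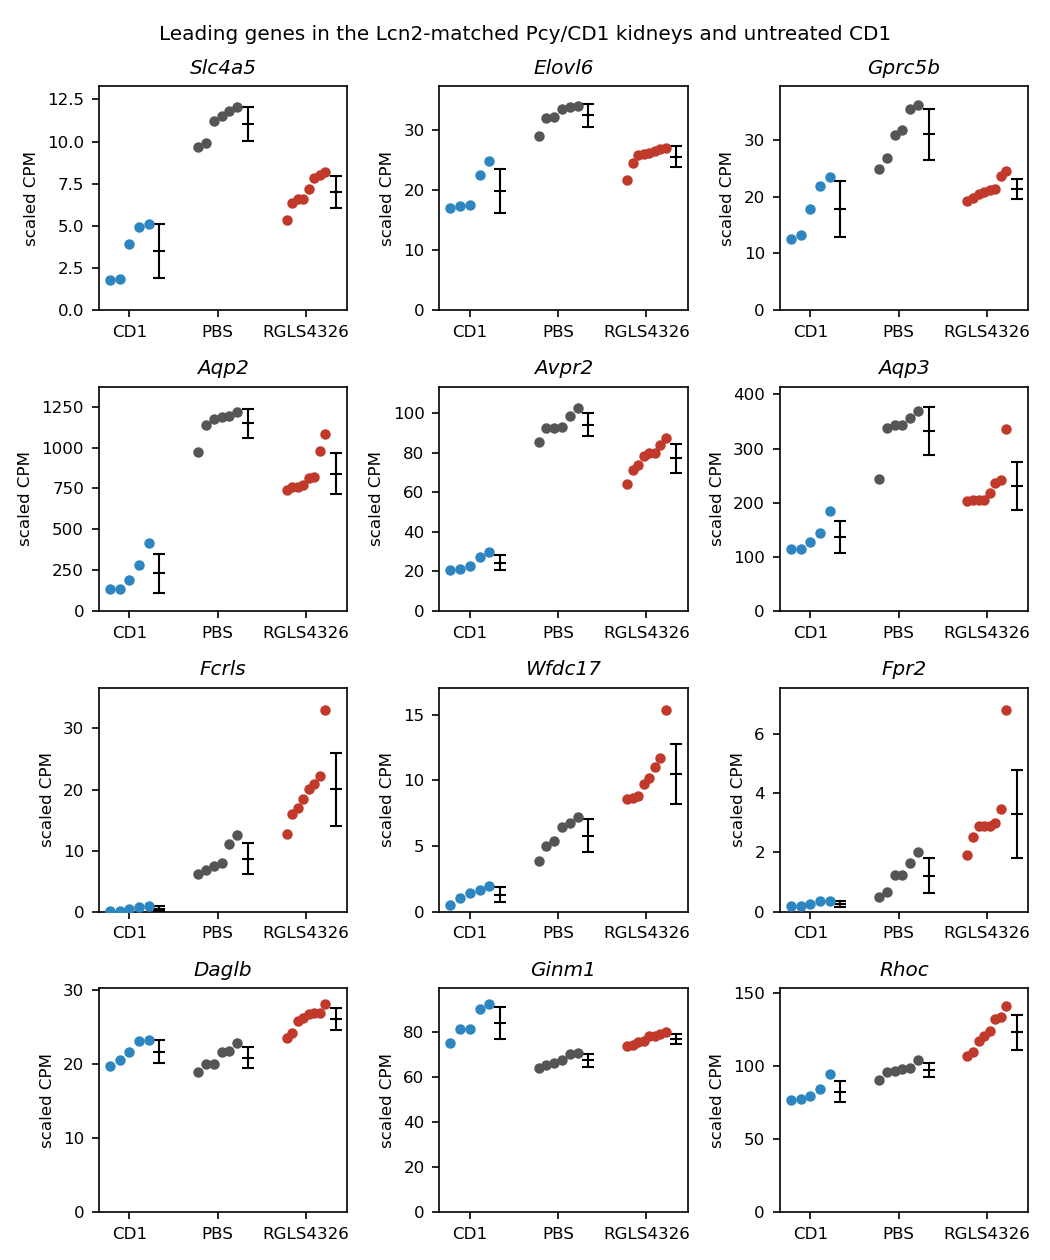
Scaled CPM of 12 genes in the 5 untreated CD1, 6 PBS and 8 RGLS4326 mice (1 point per mouse, sorted within a group; the black mark and bar are the mean ± SD). Slc4a5, Elovl6 and Gprc5b, the genes past the adjusted threshold, show no overlap between PBS and RGLS4326. Aqp2, Avpr2 and Aqp3 overlap by few mice, RGLS4326 mouse 2 is the highest point for Fcrls, Wfdc17 and Fpr2, and the differences in Daglb, Ginm1 and Rhoc are small and narrow.

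Collecting duct transcripts formed the list with the most genes lower at an unadjusted p under 0.05. Of its 17 genes, 16 had a log2 fold change below 0 with RGLS4326, where 50.7% of all genes were above 0, and 9 of them passed that threshold (against 3.44% of all genes) and none at an adjusted p under 0.05. The median log2 fold change was −0.17, against 0.00 over all genes, and −0.42 with the share of reads aligned to several places as a covariate. The list score, the mean log2(CPM + 1) of the 17 genes, was 6.62 ± 0.134 (SD) with PBS, 6.41 ± 0.077 with RGLS4326 and 5.79 ± 0.108 in CD1 kidneys.

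The vasopressin-regulated water handling genes of principal cells had the smallest p. Aqp2, the apical water channel inserted on vasopressin signalling, stood at 1188, 971.2, 1195, 1141, 1219 and 1173 scaled CPM with PBS and at 771.6, 817.6, 757.1, 761.1, 741.9, 981.3, 1085 and 812.3 with RGLS4326. Treated mice 11 and 12 lay above PBS mouse 6, and the remaining 6 treated mice lay below every PBS mouse. The log2 fold change was −0.45 ± 0.09 (SE; edgeR adjusted p = 0.0960), and CD1 kidneys were at 231 scaled CPM on average.

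Avpr2, the vasopressin receptor that raises cyclic AMP in these cells, stood at 85.7 to 102.9 scaled CPM with PBS and 64.2 to 87.3 with RGLS4326, where treated mouse 4 alone reached into the PBS range (log2 fold change −0.29 ± 0.06, edgeR adjusted p = 0.126). Aqp3, a basolateral aquaglyceroporin, was at 244.5 in PBS mouse 6 and 337 to 369 in the other PBS mice, and at 335.6 in RGLS4326 mouse 12 and 204 to 242 in the other treated mice (−0.53 ± 0.11, 0.126). Aqp4, the other basolateral water channel, had a log2 fold change of −0.54 ± 0.14 with overlapping groups (73.1 to 108.6 against 41.7 to 87.7 scaled CPM). Untreated CD1 kidneys held less Avpr2 (24.5) and Aqp3 (136.9) than either Pcy/CD1 group and more Aqp4 (135.3), so that the first 3 genes were nearer to the CD1 level with RGLS4326 and Aqp4 was farther from it.

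Among sodium and acid-base genes of the same segment, Scnn1b and Scnn1g, subunits of the epithelial sodium channel, had log2 fold changes of −0.21 ± 0.07 and −0.21 ± 0.08, while the third subunit, Scnn1a, was at 0.02 ± 0.08. Hsd11b2, which protects the mineralocorticoid receptor from glucocorticoids, was at −0.17 ± 0.08. Among intercalated cell genes, Slc4a1 and Slc26a4, the anion exchangers of acid-secreting and base-secreting cells, were at −0.31 ± 0.10 and −0.23 ± 0.11, and Atp6v1g3, a proton pump subunit, was at −0.03 ± 0.09. With Lcn2 as a covariate over all 26 Pcy/CD1 mice, Avpr2 (−0.23, edgeR adjusted p = 0.0392) and Scnn1b (−0.24, 0.0249) of this list passed (background 0.933% of genes), Avpr2 no longer without RGLS4326 mouse 2 (−0.22, 0.0552).

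**Figure D3:**
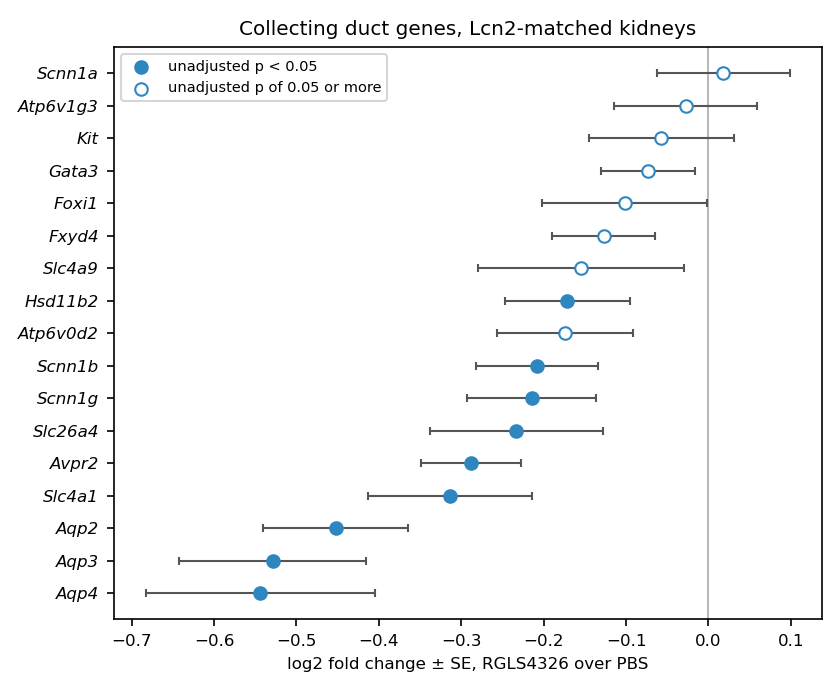
Log2 fold change ± SE (RGLS4326 over PBS) of the 17 collecting duct genes in the 14 Lcn2-matched mice, with filled points for an unadjusted p under 0.05. All but Scnn1a lie below 0, and the aquaporins Aqp4, Aqp3 and Aqp2 lie farthest left.

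Transcripts with a miR-17 8mer had a larger share of higher genes at an unadjusted p under 0.05 than all genes did (2.98%), by small amounts per gene. A 3′UTR was annotated for 14112 of the genes tested, and 609 of them (4.32%) carried an 8mer. Of those 609, 52 were higher at an unadjusted p under 0.05 (8.54%) and 20 lower (3.28%). Among 1370 genes with only 7mer-m8 matches the shares were 2.41% higher and 4.96% lower, and among 12133 genes without a match 2.76% and 3.32%. The medians differed little, at 0.01 for 8mer genes, −0.01 for 7mer-m8 genes and 0.00 for genes without a match on the log2 scale. The median 3′UTR was 2700 bases long with an 8mer, 2433 with 7mer-m8 matches only and 996 without a match, and the part of 3′UTR length was not tested.

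Of the 19 genes with every RGLS4326 mouse above every PBS mouse, 7 carried an 8mer (36.8%), against 1 of the 30 lower genes with a 3′UTR (3.33%). With Lcn2 as a covariate over all 26 Pcy/CD1 mice, 79 genes rose (0.538%) and 58 fell (0.395%) past an adjusted p of 0.05. Of these, 15 of the 74 genes with a 3′UTR that rose carried an 8mer (20.3%), and 3 of the 57 that fell did (5.26%). Without RGLS4326 mouse 9, whose Lcn2 is in the wild-type range, these counts were 13 of 56 genes that rose and 1 of 31 that fell, counted with genes lacking an annotated 3′UTR. No set test was made, because the comparison was chosen with earlier results of these data known.

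**Figure D4:**
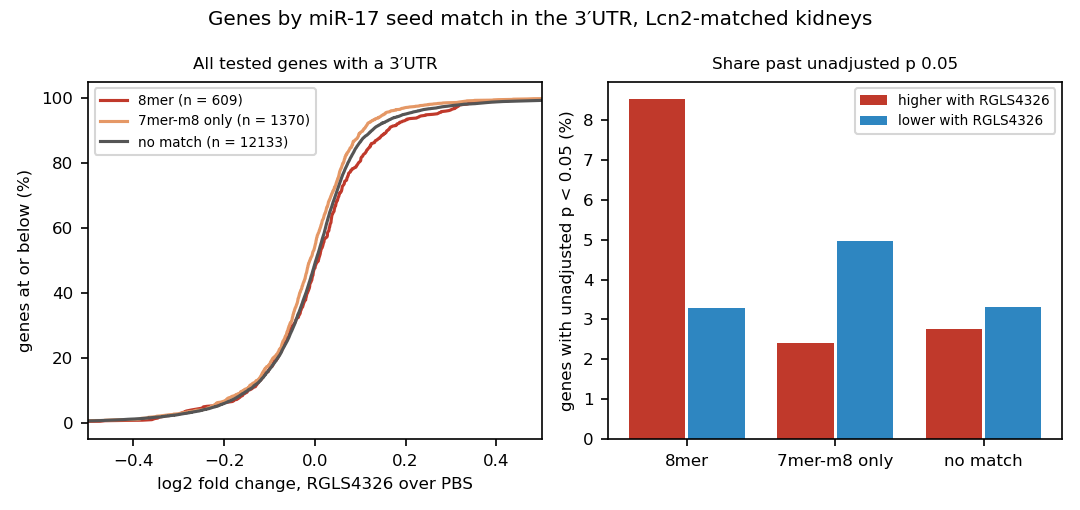
Genes by miR-17 seed match in the 3′UTR, in the 14 Lcn2-matched mice. Left, the percentage of genes at or below each log2 fold change (RGLS4326 over PBS) for 609 genes with an 8mer, 1370 with 7mer-m8 matches only and 12133 without a match; the curves meet near 0 and the 8mer curve runs to the right above it. Right, the percentage of each class with an unadjusted p under 0.05, which is 8.54% for higher 8mer genes and between 2.41% and 4.96% for the other bars.

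Among the 8 higher genes with the smallest p, 5 carried an 8mer, none past the adjusted threshold in the matched mice. Of all tested genes with a 3′UTR 4.32% carried one, and of the 8 lower genes with the smallest p only Elovl6 did. Daglb, a diacylglycerol lipase gene of endocannabinoid synthesis, stood at 21.6, 21.8, 20.0, 20.1, 22.9 and 19.0 scaled CPM with PBS and at 23.6, 26.3, 28.1, 26.8, 26.9, 25.8, 24.2 and 26.9 with RGLS4326, without overlap. Its log2 fold change was 0.31 ± 0.06 (SE; edgeR adjusted p = 0.0773), and it passed with Lcn2 as a covariate over all 26 mice (0.27, 0.00255).

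Ginm1, which encodes a membrane glycoprotein, stood at 64.2 to 70.8 scaled CPM with PBS and 73.9 to 80.3 with RGLS4326, again without overlap and with a difference of 0.19 ± 0.03 on the log2 scale (edgeR adjusted p = 0.0774). Derl2, a component of the machinery that removes misfolded proteins from the endoplasmic reticulum, stood at 42.7 to 49.1 against 48.0 to 56.6 scaled CPM, with only treated mouse 2 inside the PBS range (0.23 ± 0.05, 0.100). Sh3bp2, an adaptor of immune receptor and osteoclast signalling, had the largest fold change of these, 0.67 ± 0.13 (0.0836), at 23.8 to 38.9 against 36.9 to 55.5 scaled CPM. In CD1 kidneys Sh3bp2 was at 46.0 scaled CPM, close to the treated level of 46.3 and above the PBS level of 29.0.

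Further 8mer genes were named after their values were seen, because they rose past the adjusted threshold with Lcn2 as a covariate over all 26 mice. That fit includes the matched mice, so this choice favours genes that also differ among them. Their differences in the matched mice were small and narrow. Atg16l1, which encodes a core autophagy protein, stood at 37.2 to 42.1 scaled CPM with PBS and 44.3 to 50.8 with RGLS4326 (log2 fold change 0.23 ± 0.05). Ube2j1, a ubiquitin-conjugating enzyme gene of the endoplasmic reticulum, stood at 42.8 to 48.1 against 49.01 to 52.97 (0.16 ± 0.04), and Ficd, an endoplasmic reticulum enzyme that modifies the chaperone BiP, at 10.4 to 11.9 against 12.1 to 15.4 (0.30 ± 0.07). These 3 had no overlap between groups. Dnaja4, an Hsp40 co-chaperone gene, Map3k5, the stress kinase ASK1, and Slc25a40, a mitochondrial carrier, overlapped by 1 or more mice and had log2 fold changes of 0.28 ± 0.06, 0.30 ± 0.06 and 0.27 ± 0.07. Their edgeR adjusted p with Lcn2 as a covariate ran from 0.00189 for Ficd to 0.0200 for Slc25a40. Pla2g6 (0.0392) and Dgkq (0.0471) also rose past the threshold in that fit. They were at 0.185 ± 0.057 and 0.12 ± 0.05 in the matched mice, with overlap. Besides Elovl6, the 8mer genes Klhdc7a (−0.18, 0.0386) and Ahnak (−0.24, 0.0474) fell past it. In the matched mice Klhdc7a was at −0.15 ± 0.06 and Ahnak at −0.22 ± 0.09.

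The study's miR-17 PD-Sig, a set of 18 target genes picked in transfected mouse cell lines, was higher in 13 of its 18 genes (50.7% of all genes were above 0), 5 of them at an unadjusted p under 0.05 (27.8%, against 2.98% of all genes in that direction) and none lower at that threshold. Its median log2 fold change was 0.11. The 5 genes are those whose sites are shown above. For its Pkd2 knockout mice the study used a smaller subset, which holds Plekha3 and Mink1 but not Rhoc, P2rx4 or D030056L22Rik. Rhoc, which encodes a small GTPase of the cytoskeleton, stood at 104.0, 90.2, 98.6, 96.2, 98.3 and 96.4 scaled CPM with PBS and at 120, 132, 117, 141, 110, 133, 107 and 124 with RGLS4326, without overlap (log2 fold change 0.33 ± 0.06, edgeR adjusted p = 0.0773).

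P2rx4, an ATP-gated cation channel, was at 67.7 to 76.3 against 74.7 to 91.0 scaled CPM (log2 fold change 0.22 ± 0.05, edgeR adjusted p = 0.126). Plekha3, Mink1 and D030056L22Rik were at 0.15 ± 0.05, 0.13 ± 0.05 and 0.14 ± 0.06. With Lcn2 as a covariate over all 26 mice, Rhoc (0.21, 0.0490), P2rx4 (0.18, 0.00960) and Plekha3 (0.20, 0.0223) passed, Rhoc no longer without RGLS4326 mouse 2 (0.20, 0.0600). Without the covariate Rhoc was at 0.06 (edgeR adjusted p = 0.631), P2rx4 at 0.12 (0.0781) and Plekha3 at 0.22 (0.00701) over all 26 mice. The 6 housekeeping genes that the study pairs with this set all had a log2 fold change above 0, with a median of 0.04, and 1 of them, Hprt at 0.12 ± 0.05, had an unadjusted p under 0.05. The PD-Sig mean minus the housekeeping mean, in log2(CPM + 1), was −1.65 ± 0.104 (SD) with PBS and −1.62 ± 0.066 with RGLS4326, a difference smaller than either SD.

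Pkd1 and Pkd2 covered like ranges in both groups. Pkd1, which encodes polycystin-1, stood at 64.8 to 90.6 scaled CPM with PBS and 70.7 to 96.4 with RGLS4326 (log2 fold change 0.05 ± 0.09, edgeR adjusted p = 0.963). Pkd2, which encodes the channel subunit polycystin-2, stood at 262.5 to 321.9 against 247.9 to 314.8 (−0.07 ± 0.06, 0.900). The 30 reported miR-17 family targets, of which 29 were tested, were divided evenly, with 15 higher and 14 lower. Polycystic and cilium genes were likewise divided, 9 higher and 11 lower, with Pkhd1, the fibrocystin gene, at −0.18 ± 0.07 and Bicc1, an RNA-binding regulator of cyst growth, at −0.31 ± 0.14.

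The other 3 of the 8 higher genes with the smallest p were Fcrls, Wfdc17 and Fcrl5, none past the adjusted threshold in the matched mice. Fcrls, an Fc receptor-like gene of resident macrophages and microglia, stood at 11.04, 8.03, 6.23, 7.43, 12.6 and 6.84 scaled CPM with PBS and at 16.1, 32.99, 16.96, 18.4, 22.2, 20.9, 20.1 and 12.8 with RGLS4326, against 0.0601 to 0.968 in CD1 kidneys. Every treated mouse lay above every PBS mouse, mouse 14 by little. The log2 fold change was 1.19 ± 0.20 (SE, edgeR adjusted p = 0.0748 in the matched mice and 0.00189 with Lcn2 as a covariate over all 26 mice). Without the covariate it was 0.55 over all 26 mice (edgeR adjusted p = 0.202).

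Wfdc17, a secreted inhibitor made by activated macrophages, stood at 3.89 to 7.18 scaled CPM with PBS and 8.55 to 15.4 with RGLS4326 (log2 fold change 0.85 ± 0.15, edgeR adjusted p = 0.0773). Fcrl5, an Fc receptor-like gene of B lymphocytes that belongs to the lymphocyte list, stood at 0.0996 to 0.646 against 0.953 to 4.03 (2.18 ± 0.43, 0.0960), also without overlap, though at levels of few counts. Of the neutrophil list, 5 genes were tested, 3 higher and 2 lower, with 2 higher at an unadjusted p under 0.05 (40%, against 2.98% of all genes in that direction). Those 2 were the formyl peptide receptor genes Fpr1 and Fpr2, sensors of bacterial and mitochondrial peptides on phagocytes, with log2 fold changes of 2.07 ± 0.47 and 1.41 ± 0.31 and groups that overlapped. The other members were Csf3r, the receptor of granulocyte colony-stimulating factor, at 0.40 ± 0.19, S100a9, a calprotectin subunit gene, at −0.28 ± 0.27 and Mmp9, a gelatinase gene, at −0.20 ± 0.38. With Lcn2 as a covariate over all 26 mice, Fcrl5 (2.31, 0.00106), Fpr2 (1.62, 0.00106), Fpr1 (2.11, 0.00145) and Wfdc17 (0.68, 0.00145) passed. Without the covariate Wfdc17 was at 0.25 (edgeR adjusted p = 0.461) and did not pass, while Fcrl5 (1.86, 0.00978), Fpr2 (1.275, 0.0131) and Fpr1 (1.62, 0.0179) did.

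Of the listed macrophage markers, 12 of the 17 tested were higher and 5 lower, 3 higher at an unadjusted p under 0.05 (17.6%, against 2.98% of all genes in that direction), with a median of 0.09. This median ran from −0.022 without RGLS4326 mouse 2 to 0.22 without PBS mouse 2, and was 0.057 without PBS mouse 8, 0.14 without PBS mouse 11, 0.018 without PBS mouse 12 and 0.049 without RGLS4326 mouse 12. It was 0.72 with the share of reads aligned to several places as a covariate. The 3 higher genes were Emr1 (0.59 ± 0.21), which encodes the F4/80 antigen, Itgam (0.47 ± 0.20), which encodes CD11b, and C1qa (0.35 ± 0.15) of the complement C1q complex. Gpnmb, a gene of lipid-laden macrophages, was at −1.01 ± 0.59, and at 0.16 without PBS mouse 2, so that its direction depended on that mouse. Named after their values were seen, the C-type lectin genes Clec4a1, Clec4a2, Clec4a3 and Clec12a were at 0.63, 0.63, 0.59 and 0.70, Lst1 at 0.70 and Siglece at 0.72, none past the adjusted threshold in the matched mice. These 6 genes rose past it with Lcn2 as a covariate over all 26 mice (edgeR adjusted p from 0.00530 for Clec12a to 0.0221 for Clec4a2 and Siglece), as did Emr1 (0.73, 0.0386) and Itgam (0.57, 0.0392). Without the covariate none of these genes passed over all 26 mice, at log2 fold changes from 0.12 for Lst1 (edgeR adjusted p = 0.739) to 0.43 for Emr1 (0.160). The Clec4a genes are close copies of each other, so reads could be divided among them.

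RGLS4326 mouse 2 held the highest level of Fcrls, Wfdc17, Fcrl5, Fpr1 and Fpr2, and also of Klra2, Emr1, Itgam, C1qa, Clec4a1, Clec4a2, Clec4a3, Clec12a, Lst1 and Siglece. The same mouse held the most of the adipocyte genes Cfd (69.7 scaled CPM) and Adipoq (11.2), which were 0 in treated mice 1, 11 and 12 and also present in PBS mouse 6 (13.05 and 2.72). Without mouse 2 the log2 fold change was 1.05 for Fcrls (edgeR adjusted p = 0.0474), 0.75 for Wfdc17 (0.0651), 1.84 for Fcrl5 (0.0651), 1.74 for Fpr1 (0.178) and 1.18 for Fpr2 (0.130). It was 0.57 for Klra2, 0.42 for Emr1, 0.36 for Itgam and 0.24 for C1qa without that mouse, and from 0.48 for Clec4a3 to 0.61 for Siglece among the other 6. The difference in each of these 15 genes was smaller without mouse 2 and kept its direction. In the fit with Lcn2 as a covariate over the other Pcy/CD1 mice, an alternative chosen after the data were seen, Emr1 (0.62, edgeR adjusted p = 0.0637), Itgam (0.51, 0.0650) and C1qa (0.24, 0.270) did not pass and the other 12 did, the highest adjusted p being 0.0415 for Clec4a2. Of 15 lymphocyte markers tested, 7 were higher and 8 lower, with a median of −0.02. Fcrl5 and Klra2 (0.82 ± 0.28), a killer cell lectin-like receptor gene, were higher at an unadjusted p under 0.05 (13.3%, against 2.98% of all genes in that direction). None was lower at that threshold. With Lcn2 as a covariate over all 26 mice Klra2 also passed (1.04, edgeR adjusted p = 0.0213). Which cells the Klra2 transcripts came from was not tested.

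At matched Lcn2 the other injury transcripts leaned to higher values with RGLS4326. Of the 24 other tubular injury markers tested, 21 were higher with RGLS4326 and 3 lower, 6 higher at an unadjusted p under 0.05 (25%, against 2.98% of all genes in that direction) and none past the adjusted threshold. The median log2 fold change was 0.15, and it was 0.23 without PBS mouse 2 and 0.081 without RGLS4326 mouse 5. The mean log2(CPM + 1) of the markers was 5.49 ± 0.240 (SD) with PBS, from 5.22 to 5.82, and 5.75 ± 0.196 with RGLS4326, from 5.49 to 6.03, against 3.80 ± 0.210 in CD1 kidneys.

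Havcr1, the proximal tubule injury receptor Kim-1, stood at 25.8 to 63.1 scaled CPM with PBS (median 49.1) and 41.9 to 110.5 with RGLS4326 (median 60.5). Its log2 fold change was 0.50 ± 0.23 (edgeR adjusted p = 0.771) with wide overlap. Cxcl1, a neutrophil chemoattractant, was at 4.52 to 11.2 against 7.03 to 18.7 (0.96 ± 0.25, 0.255), and Ccl2, a monocyte chemoattractant, at 0.38 ± 0.14. Fgg, Timp1 and Gdf15 completed the 6, at 0.90 ± 0.34, 0.38 ± 0.15 and 0.42 ± 0.18. When the mean of these markers was added as a covariate, an alternative chosen after the data were seen, Slc4a5 (−0.73), Elovl6 (−0.39) and Gprc5b (−0.61) passed with an edgeR adjusted p of 0.0234 each, Fcrls was at 0.98 (0.111) and Aqp2 at −0.41 (0.151).

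Several differences seen over all 26 Pcy/CD1 mice were small among the matched mice. Proximal tubule transporters had a median log2 fold change of 0.35 over all mice and 0.02 in the matched mice, where 13 were higher and 12 lower. Cell cycle genes had medians of −0.32 and 0.01, with 11 higher and 9 lower and none at an unadjusted p under 0.05. Fibroblast and matrix genes stood at −0.25 and −0.07, and PPAR-alpha targets at 0.15 and 0.06. When 1 mouse was left out, the matched medians ran from −0.066 to 0.076 for the proximal tubule, from −0.016 to 0.043 for the cell cycle, from −0.17 to 0.0053 for fibroblast and matrix genes and from −0.020 to 0.10 for PPAR-alpha targets, so none of these 4 kept its direction. The fibroblast and matrix median was above 0 without PBS mouse 2 or 11, and the PPAR-alpha median was below 0 without PBS mouse 2. Mmp7 (−0.07 ± 0.35), a metalloproteinase of injured tubules, Igfbp2 (−0.10 ± 0.20), an insulin-like growth factor binding protein, and Megf6 (−0.04 ± 0.21) had differences below their SE in the matched mice. The direction of Mmp7, Igfbp2 and Megf6 depended on PBS mouse 2, without which they were at 0.51, 0.08 and 0.18.

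All 16 interferon-stimulated genes had a log2 fold change below 0, with a median of −0.16. At an unadjusted p under 0.05, 2 of them were lower (12.5%, against 3.44% of all genes), Ifit1 (−0.37 ± 0.13) and Ifit3 (−0.22 ± 0.09). The median was −0.095 without PBS mouse 2 and −0.27 without RGLS4326 mouse 2. All 11 endothelial genes were below 0 with a median of −0.21, which was −0.14 without PBS mouse 11, and none was at that threshold. Over all 26 mice the endothelial median was 0.03. Wnt pathway genes were lower in 22 of 29 and higher in 7, 4 lower at an unadjusted p under 0.05 (13.8%), among them the receptors Fzd1 (−0.23 ± 0.06) and Lrp5 (−0.18 ± 0.05). Their median of −0.10 was −0.061 without PBS mouse 2, −0.062 without RGLS4326 mouse 5, −0.15 without RGLS4326 mouse 2 and −0.16 without PBS mouse 7. None of the interferon-stimulated, endothelial or Wnt genes passed the adjusted threshold in the matched mice. Over all 26 mice 6 Wnt genes fell past it (4.83% of all genes did), and with Lcn2 as a covariate 1 did (0.395% of all genes), Lrp5 (−0.17, edgeR adjusted p = 0.0363). With the share of reads aligned to several places as a covariate, an alternative chosen after the data were seen, the medians of these 3 lists were above 0, at 0.092, 0.32 and 0.20.

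Glucocorticoid-responsive genes were higher in 10 of 16 (50.7% of all genes were above 0), 4 of them at an unadjusted p under 0.05 (25%, against 2.98% of all genes in that direction). Their median of 0.21 was 0.088 without RGLS4326 mouse 14, 0.13 without PBS mouse 2 and 0.14 without PBS mouse 11, and it was −0.034 with the share of reads aligned to several places as a covariate and 0.015 with the replicate number as a block. Fkbp5, a co-chaperone of the glucocorticoid receptor, stood at 44.5 to 79.9 scaled CPM with PBS and 63.9 to 103.9 with RGLS4326 (log2 fold change 0.44 ± 0.13, edgeR adjusted p = 0.379). It passed with Lcn2 as a covariate over all 26 mice (0.50, 0.0201). Liver-type plasma protein genes were higher in 13 of 14 with a median of 0.64, of which Fga (0.71 ± 0.25), the fibrinogen alpha chain, had an unadjusted p under 0.05 (7.14%, against 2.98% of all genes in that direction). This median was 0.096 without RGLS4326 mouse 1, 0.42 without PBS mouse 12 and 1.01 without PBS mouse 6. It was 1.60 with the share of reads aligned to several places as a covariate.

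**Figure D5:**
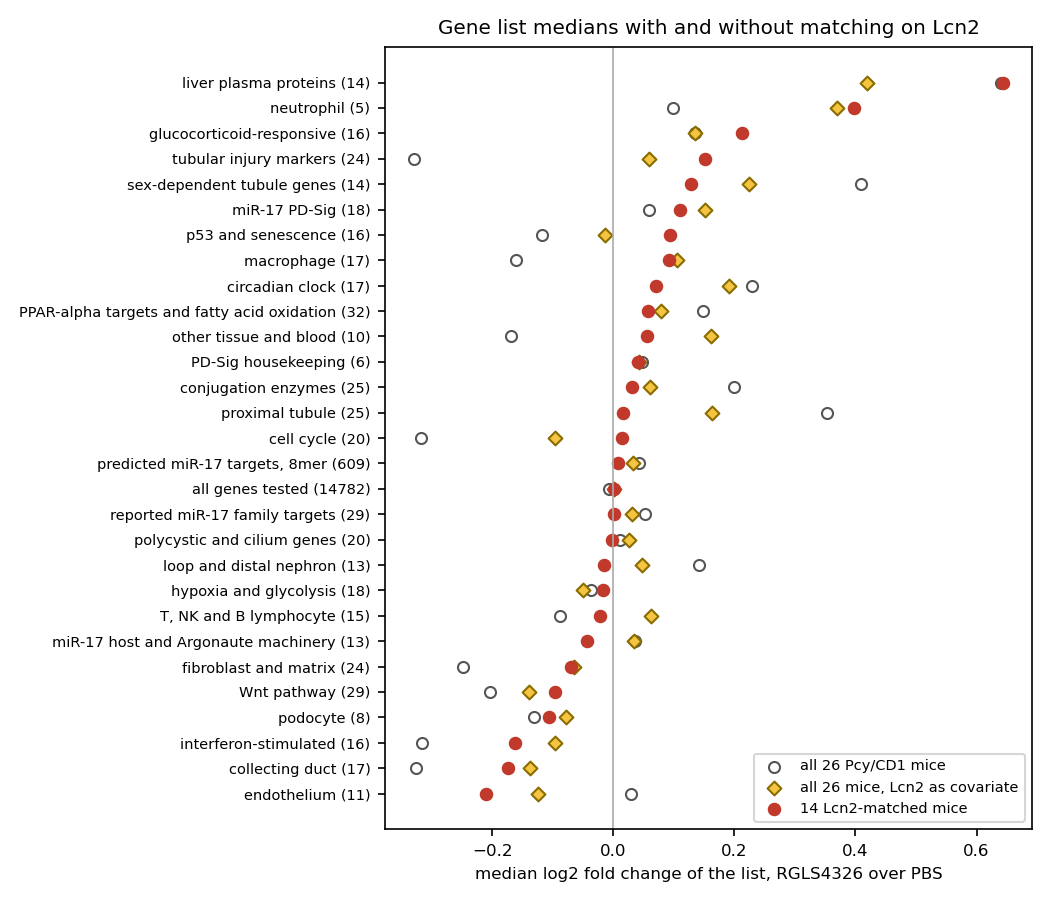
Median log2 fold change (RGLS4326 over PBS) of each gene list, with the number of genes tested in parentheses, in the 14 Lcn2-matched mice (filled red), in all 26 Pcy/CD1 mice (open) and in all 26 with Lcn2 as a covariate (yellow). In all 26 mice without the covariate the injury and cell cycle lists lie below 0, and in the matched mice the injury list lies above 0 and the cell cycle list near 0, and the proximal tubule list lies farther right over all mice, while the collecting duct list lies below 0 in all 3 fits.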

How the data were processed

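The authors deposited whole-number read counts per gene for each kidney: stranded mRNA libraries, reads trimmed with Trim Galore, aligned with STAR to GRCm38 (mm10) and counted over uniquely aligned reads with HTSeq 0.6.1; the strand setting of the counting is not given in the sources used here, so genes and antisense partners may share counts. Lines that name no gene (unassigned reads) were left out of totals and tests. Mice were chosen by Lcn2 count over the gene total, 250 to 750 CPM. The members, gene lists and comparisons were chosen with earlier results of these data known.

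Counts of the 14 mice were tested with edgeR 4.0.16 in R 4.3.3 (TMM scaling, filterByExpr defaults, quasi-likelihood F test, Benjamini-Hochberg over all genes, adjusted p under 0.05). The same fit was run on all 26 Pcy/CD1 mice with and without log2(Lcn2 CPM + 1) as a covariate, and DESeq2 1.42.0 was an alternative. SE is the log2 fold change over the square root of F. Scaled CPM uses TMM factors over all 31 libraries. Library measures were compared by exact two-sided permutation. The fit was tested on simulated counts, where it called 91.7% of genes changed by 1 on the log2 scale. It called 67.7% of those changed by 0.5 and 0.0482% of unchanged genes, so changes of 0.5 or less can be missed. Named genes were those past the threshold, then the smallest p up to 8 per direction (mean level no lower than 1 CPM), the 3 smallest p in each of 27 lists, and genes of the all-mice comparison; any others are named as chosen after their values were seen or as list members. Seed matches were read from the longest 3′UTR per gene in GENCODE vM21 (GRCm38), microRNAs from RefSeq. The numbered series were read within each group from library numbers that restart in the file names, and were paired across groups by order.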

Additional observations from a re-analysis of the deposited data

Results flagged for a closer look

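Among 115 groups of mice checked, for the 37 genes whose values are described per group and for 2 library measures, 18 held a mouse far from the others by Dixon's 95% criterion, where chance gives about 1 in 20. RGLS4326 mouse 2 was the far mouse for Fcrls (32.99 scaled CPM, next 22.2), Fcrl5 (4.03, next 1.94), Wfdc17 (15.4, next 11.7), Fpr1 (4.63, next 2.24), Fpr2 (6.80, next 3.48), Cfd (69.7, next 28.5) and Adipoq (11.2, next 5.06). PBS mouse 6 was the far mouse for Aqp2 (971, next 1140), Aqp3 (244.5, next 337), Cfd (13.05, next 0.372) and Adipoq (2.72, next 0.093). RGLS4326 mouse 12 stood apart for Aqp3 (336, next 242), PBS mouse 11 for Camk1g (3.37, next 2.79), Ranbp3l (57.3, next 46.1) and the gene total (25582754, next 21478220), and PBS mouse 2 for Ccl2 (14.5, next 9.76). In CD1 kidneys, mouse 3 stood apart for Fcrl5 (0.0591, with 0 in the others) and mouse 2 for Atg16l1 (34.1, next 36.6).

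Outside the gene counts, the share of reads aligned to several places was higher with RGLS4326 than with PBS by 1.40 percentage points. Its part in the gene differences was not tested beyond the covariate fit given next.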

How the results depend on the processing

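The count of genes past an adjusted p of 0.05 in the matched mice, 3, stayed at 3 with RLE size factors, without a filter and with a filter of 5 CPM. Ranges of 300 to 700 CPM, or of 250 to 750 CPM after TMM scaling, held the same 14 mice. Widened to 200 to 800 CPM (8 PBS and 9 RGLS4326 mice), 1 gene passed, Fcrls, higher by 1.21. DESeq2 passed 74 (32 higher, 23 past 0.5 on the log2 scale), log2 Lcn2 as a covariate within the range 9 (4 higher, 5 past 0.5), the numbered series as a covariate 0 (0 past 0.5; 1137 at an unadjusted p under 0.05), and all 26 mice 1480 (771 higher, 210 past 0.5) without and 137 (79 higher, 36 past 0.5) with Lcn2 as a covariate. Of the alternatives added after seeing the data, the mean of the other injury markers as a covariate passed 22 (2 higher, 4 past 0.5), and the share of reads aligned to several places 2, both higher (Fcrl5 and Fpr2).

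Leaving out 1 mouse gave 0 to 6 genes, 0 to 4 of them past 0.5 and 0 to 1 higher. The count was 0 without PBS mouse 2, 8, 11 or 12 or RGLS4326 mouse 1, 4, 5 or 11, it was 1 without PBS mouse 6, and it was 6 without RGLS4326 mouse 2 or 12. Higher 8mer genes, 52, numbered 41 to 58 when 1 mouse was left out and 43 to 60 under the other alternatives within the same mice except the block, against 9 to 24 lower ones when 1 mouse was left out (9 without PBS mouse 6). Higher 8mer genes numbered 168 in all mice and 106 with Lcn2 as a covariate. In those fits 5208 and 2232 of all genes, in either direction, had an unadjusted p under 0.05, against 948 in the matched mice. The counts of 8mer and list genes in those fits are to be read against these. Lower 8mer genes numbered 13 with the filter of 5 CPM and 76 in all mice. They numbered 42 with the injury markers and 13 with the share of reads aligned to several places as a covariate. Collecting duct genes lower at an unadjusted p under 0.05 numbered 7 to 11 without 1 mouse and 7 to 13 otherwise. PD-Sig genes higher at that threshold numbered 3 to 8 without 1 mouse (8 without PBS mouse 6, 3 without PBS mouse 8 or RGLS4326 mouse 12), 9 with Lcn2 as a covariate in all mice and 3 with the share of reads aligned to several places. Higher injury markers numbered 3 to 11 without 1 mouse (11 without PBS mouse 2, 3 without PBS mouse 7 or 8 or RGLS4326 mouse 5 or 11), 3 with the numbered series, 3 with the share of reads, 1 with their own mean, which contains them and so fixes their values near 0, and 1 in all mice.

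Replicate numbers 2, 7, 11 and 12 occur in both groups but name different animals. Deviations from the group means correlated by 0.475 for number 2, −0.0561 for 7, −0.127 for 11 and −0.0877 for 12 between same-numbered mice. What same-numbered mice share beyond the number was not tested. With the number as a replicate block, which leaves 4 pairs to inform the fit, 0 genes passed (0 past 0.5; 522 at an unadjusted p under 0.05), 27 8mer genes were higher and 12 lower, 2 PD-Sig genes were higher, the glucocorticoid median was 0.015, and Mmp7 (0.014) and Megf6 (0.045) turned positive. Over all 26 mice the block left 11 genes, and 14 with Lcn2 as a covariate. With no block and without RGLS4326 mouse 9, the fits over the other Pcy/CD1 mice passed 776 genes without a covariate and 87 with Lcn2. With no block and no filter, the fit over all 26 mice without a covariate passed 854.

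List medians that moved from their value in the matched mice by more than the SD of the list score were, in all 26 mice, −0.33 for injury markers, 0.052 for reported miR-17 targets, 0.035 for miR-17 host and Argonaute genes, 0.35 for proximal tubule, 0.14 for loop and distal nephron, −0.33 for collecting duct, 0.10 for neutrophil, −0.32 for cell cycle, 0.20 for conjugation enzymes, −0.12 for p53 and senescence and 0.41 for sex-dependent tubule genes. With Lcn2 as a covariate they were 0.034 for miR-17 host and Argonaute genes, −0.10 for cell cycle and −0.014 for p53 and senescence. With the injury markers as a covariate they were −0.0785 for those markers, 0.33 for circadian clock, 0.18 for conjugation enzymes and −0.019 for p53 and senescence. The lymphocyte median was −0.26 with the filter of 5 CPM, and the glucocorticoid median ran from 0.088 to 0.30 without 1 mouse.

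With the share of reads aligned to several places as a covariate, which nearly coincides with treatment, medians were −0.0854 for polycystic and cilium genes, −0.17 for PPAR-alpha targets, 0.20 for Wnt, −0.19 for loop and distal nephron, −0.42 for collecting duct, 0.40 for podocyte, 0.32 for endothelium, 0.56 for fibroblast and matrix, 0.72 for macrophage, 1.09 for neutrophil, 0.19 for lymphocyte, 0.092 for interferon-stimulated, −0.034 for glucocorticoid-responsive, −0.31 for circadian clock, −0.10 for hypoxia and glycolysis, 1.60 for liver plasma protein and 1.17 for other tissue and blood genes. Mmp7 (0.49), Igfbp2 (0.35), Megf6 (0.34) and Gpnmb (0.81) also changed sign there. Further sign changes were Ranbp3l (0.084), Ccl2 (−0.043), C1qa (−0.11) and Pkd2 (0.15) in all 26 mice, Pkd2 (0.090) with Lcn2 as a covariate, Havcr1 (−0.026, itself one of the averaged markers), Pkd1 (−0.022) and Pkd2 (0.016) with the injury markers, and Mmp7 (0.057) and Megf6 (0.057) in the wider range. Without 1 mouse, log2 fold changes ran from −0.0054 to 0.095 for Pkd1, from −0.22 to 0.51 for Mmp7, from −0.22 to 0.080 for Igfbp2, from −0.14 to 0.18 for Megf6 and from −1.28 to 0.16 for Gpnmb. The cause of these changes was not tested.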
